A study of Mus musculus with 2 samples.

Results

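Histone genes, which encode the proteins that package DNA into nucleosomes, were read out in total RNA of the mouse hippocampus. Members were genes whose symbol begins with Hist1h to Hist4h, H2af, H3f3 or H1f and that have a protein-coding transcript. This gave 82 of 55536 annotated genes, of which 67 carry a Hist symbol and are called replication-dependent here, and 15 are variant genes. A further 9 genes matched by symbol only and were left out, among them the processed pseudogene Hist1h2al, at 19.6 and 16.7 TPM. Per the labels, 2 libraries, biological replicates 1 and 2, form the only group: tissue called layer of hippocampus from female B6CASTF1/J mice aged 25 days. B6CASTF1/J is the first-generation cross between C57BL/6 and CAST mice, the latter of wild origin. No treatment or induced mutation is named. The replicates have separate biosamples and the same donor entry, and the labels do not say whether they are separate animals. Each library was made from 300 ng of RNA, reduced in ribosomal RNA rather than selected for poly(A) tails, with ERCC spike-ins added. With 1 group, no condition could be compared and no test between groups exists. Levels are in TPM (transcript abundance per length, scaled to a fixed library total), in replicates 1 and 2 in that order unless stated, and coordinates are on mm10.

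Replication-dependent histone genes lie in clusters, mostly lack introns, and give mRNAs that end in a conserved stem-loop instead of a poly(A) tail. The stem-loop is bound by the protein SLBP, and in dividing cells these mRNAs accumulate in S phase, when new DNA is packaged. Variant histone genes give polyadenylated mRNAs, often spliced, and mostly lie outside the clusters. They are used throughout the cell cycle, and in neurons, which no longer divide, the variant H3.3 replaces canonical H3 in chromatin over time.

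The 2 libraries held 34919989 and 41206890 expected counts, of which histone genes took 0.0931% and 0.0999%. Markers of hippocampal neurons were present in full (7 of 7 at or above 1 TPM in both libraries), including Hpca at 1174 and 1042 TPM and Slc17a7 at 648 and 630 TPM. Markers of interneurons (5 of 5), astrocytes (5 of 5), oligodendrocytes (5 of 5), their precursors (3 of 3), microglia (4 of 4), endothelium (3 of 3) and red blood cells (3 of 3) were also detected in full, and 3 of 4 neurogenesis markers were, with Eomes at 0.36 and 0.52 TPM. In RNA of mixed tissue, fewer cells of a type and less RNA per cell cannot be told apart. Reads from the CAST allele were counted on mm10 by the authors, and any loss of such reads was not examined.

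The letters that set the classes apart are those of the 3′ stem-loop, shown here for members whose levels are described below. The pattern, 16 bases long, is GG, any 3 bases, TT, any base, T, any base, A, any 3 bases and CC. It was searched on the transcript strand after the stop codon of each GENCODE transcript. It was found in 46 of 67 replication-dependent genes (68.7%), in 1 of 15 variant genes (6.67%) and in 2.55% of 21901 genes with a protein-coding transcript. The search planned first covered only the last 150 bases of each transcript. There it was found in 24 of 67 replication-dependent genes (35.8%), in 0 of 15 variant genes and in 0.552% of all these genes. Capitals mark the stem-loop match and lower case the bases beside it, 5′ to 3′ on the strand of the gene, with the position of the match.
Hist1h4h (chr13:23531458-23531473, plus strand): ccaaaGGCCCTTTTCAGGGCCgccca
Hist1h4d (chr13:23581950-23581965, plus strand): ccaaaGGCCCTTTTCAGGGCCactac
Hist1h4b (chr13:23757366-23757381, plus strand): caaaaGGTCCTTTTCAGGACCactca
Hist2h2aa2 (chr3:96239784-96239799, minus strand): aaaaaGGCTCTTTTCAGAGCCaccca
Hist1h2bg (chr13:23571843-23571858, plus strand): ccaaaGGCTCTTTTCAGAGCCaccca
Hist1h3e (chr13:23561903-23561918, minus strand): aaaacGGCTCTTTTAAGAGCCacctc
Hist1h1c (chr13:23739512-23739527, plus strand): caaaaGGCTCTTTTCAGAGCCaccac
H2afx (chr9:44335240-44335255, plus strand): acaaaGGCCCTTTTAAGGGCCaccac

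H4 genes with a match had letters seen in no replication-dependent gene of another family. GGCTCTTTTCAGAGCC stood in 26 replication-dependent genes, of families H1, H2A, H2B and H3, and in no H4 gene. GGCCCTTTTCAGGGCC stood in 7 genes, every one of them H4, and 2 further H4 genes, Hist1h4b and Hist1h4j, shared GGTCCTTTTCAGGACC. The match began 21 to 58 bases after the stop codon, with a median of 31. H2afx, the variant whose phosphorylated protein marks DNA breaks, was the only variant gene with a match, 46 bases after its stop codon, and its stem has the same letters as that of most H4 genes. Of the 21 replication-dependent genes with no match, 16 had models with fewer than 40 bases after the stop codon, so these letters could not be fully seen there. The other 5 genes had a model with 40 or more bases after it and no match. In Hist1h1a these were 48 bases, too few to show a match at the farthest place seen. The transcripts of Hist1h2bq and Hist1h2br that led in the first quantification, with 98.8% and 97.7% of the gene TPM, had 0 bases after it.

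Gene models often ran on past the stem-loop. In 3 of the 46 matched genes the model ended within 20 bases of the letters, in 25 it ran 21 to 200 bases past them, and in 18 it ran over 200 bases past them. The 18 long models summed to 274 and 272 TPM and the 25 models of middle length to 552 and 577 TPM. TPM divides by model length and the groups differ in number of genes, so these sums do not rank the groups by RNA. A match is a description of the letters and says nothing of how the transcripts in these libraries ended.

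The classes also differed in gene structure. Of the replication-dependent genes, 62 of 67 had models without introns only, and Hist1h2bc, Hist1h2be, Hist1h2bp, Hist1h2bq and Hist1h2br had a spliced model. Of the variant genes, 8 of 15 had a spliced transcript. The median transcript length was 528 bases for replication-dependent and 1113 for variant genes. TPM divides by length, so short genes hold a larger share of TPM than of counts.

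Replication-dependent genes, 67 of the 82 members, held most of the summed histone RNA per length of transcript. Their summed level was 1350 and 1403 TPM (1377 ± 37.5 SD, n = 2), against 537 TPM in each library for variant genes. They held 71.6% and 72.3% of the histone sum, and the ratio of the class sums was 2.51 and 2.62. On expected counts, which are not per length, the ratio was 1.21 in both libraries. In the second quantification that the authors deposited, described below, it was 1.69 and 1.82 on TPM and 0.666 and 0.659 on estimated counts. Which class is the larger on counts thus differed between the deposited tables, while on TPM the replication-dependent sum was higher in both. Per gene, the median in the first quantification was 9.79 and 11.2 TPM in replication-dependent and 21.2 and 23.7 TPM in variant genes. All histone genes together made up 0.435% and 0.462% of the TPM of nuclear protein-coding genes.

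Detection was broad among replication-dependent genes. At or above 1 TPM in both libraries stood 61 of 67 replication-dependent genes and 10 of 15 variant genes, beside 57.6% of 22015 nuclear protein-coding genes. The variant count is near this background. In 25 replication-dependent genes most of the sequence also occurs in other genes, as counted below. Whether each of these is detected may depend on how shared reads were divided. At or above 20 TPM in both were 26 members, 18 replication-dependent and 8 variant. The order was alike in the libraries, with 9 of the top 10 members shared.

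**Figure D1:**
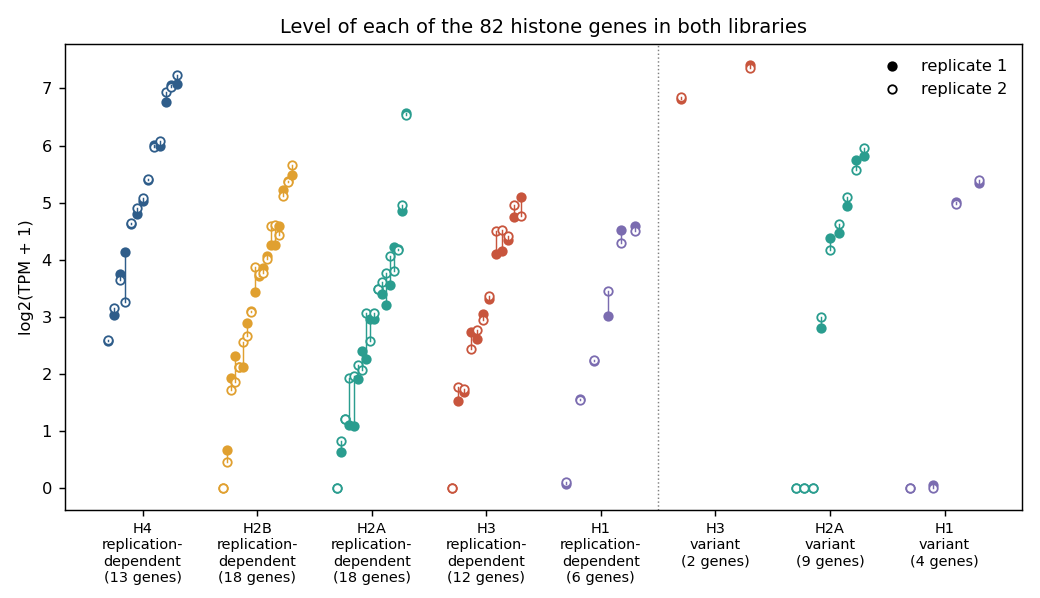
Level of each of the 82 histone genes as log2(TPM + 1), grouped by class and family, with a filled point for replicate 1 and an open point for replicate 2 joined by a line. Replication-dependent H4 genes and the 2 H3 variant genes reach the highest levels, and the largest gaps between replicates are in genes of middle and low level.

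By genomic cluster, the 54 Hist1 genes on chromosome 13 (21715763 to 23934851) summed to 1088 and 1129 TPM. The 10 Hist2 genes on chromosome 3 (96219865 to 96270132) summed to 189 and 199 TPM. The 2 Hist3 genes on chromosome 11 (58948920 to 58956830) gave 68.4 and 70.2 TPM, and Hist4h4, the only Hist4 gene, on chromosome 6 (136801553 to 136804415), 5.01 and 5.02 TPM.

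H4 is the core histone that pairs with H3 and for which no variant gene is among the members. Its 13 genes were all detected and summed to 665 and 689 TPM, 35.2% and 35.5% of the histone sum by TPM, the largest share of any family by TPM in the first quantification. By expected counts H4 held 22.5% and 22.8%, below H3 with 26.4% and 26.5% and H2A with 26.1% and 26.6%, with both classes in each family. Hist1h4h (ENSMUSG00000060981.7, chromosome 13, 23531050 to 23531519, plus strand) led by TPM with 135 and 149. By expected counts Hist1h4d led, with 1591 and 1936 against 1203 and 1663 in Hist1h4h. The Hist1h4d model has 1138 bases and that of Hist1h4h 470. Hist1h4k (ENSMUSG00000064288.4, chromosome 13, 21750194 to 21750505, minus strand) had 132 and 129.9 TPM, from a model of 312 bases that holds the coding sequence alone. Hist1h4m (ENSMUSG00000069306.5, chromosome 13, 21811746 to 21812147, plus strand) had 107 and 122 TPM. The deposited intervals of TPM for Hist1h4h and Hist1h4k overlapped in both libraries, as did those of Hist1h4k and Hist1h4m, while those of Hist1h4h and Hist1h4m did not.

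Hist1h4f (chromosome 13, 23551258 to 23551648, minus strand) followed with 63.0 and 66.4 TPM. Hist1h4d (chromosome 13, 23581598 to 23582735, plus strand) stood beside it at 63.6 and 62.0 TPM. These neighbours in the order overlapped between libraries and are not distinguished. Hist1h4c was at 41.2 and 41.5 TPM, Hist1h4b at 31.5 and 32.8 TPM, Hist1h4i at 26.8 and 29.0 TPM and Hist1h4a at 23.6 and 23.9 TPM. The lowest by TPM were Hist1h4j, at 7.22 and 7.94 TPM, and Hist4h4. The Hist4h4 model has 2863 bases, and its 333 and 417 expected counts were above the 117 and 161 of Hist1h4j.

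H4 genes encode the same protein from similar DNA. The 13 coding sequences are 312 bases each, and over their 78 pairs the identity ran from 85.3% to 100%, with a median of 93.9%. Hist1h4m and Hist1h4n are identical over the whole coding sequence. Coding bases 7 to 66, counted from 1 at the start codon, are shown for the H4 genes of highest level, from GENCODE transcripts on mm10, with capitals where a base differs from Hist1h4h.
Hist1h4h: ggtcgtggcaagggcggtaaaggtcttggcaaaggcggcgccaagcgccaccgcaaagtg
Hist1h4k: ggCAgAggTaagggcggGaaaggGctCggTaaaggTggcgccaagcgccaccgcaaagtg
Hist1h4m: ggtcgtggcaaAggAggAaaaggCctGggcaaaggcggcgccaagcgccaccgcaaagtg
Hist1h4f: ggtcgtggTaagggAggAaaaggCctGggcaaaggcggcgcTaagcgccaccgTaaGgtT
Hist1h4d: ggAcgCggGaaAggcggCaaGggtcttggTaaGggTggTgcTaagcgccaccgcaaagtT

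Against Hist1h4h these 60 bases differ at 9 positions in Hist1h4k, 5 in Hist1h4m, 9 in Hist1h4f and 12 in Hist1h4d. Over the whole coding sequence the differences number 14, 10, 16 and 19.

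Such windows were counted over all transcripts of the annotation. A median of 65.7% of the 100-base windows of a replication-dependent gene occurred in no other gene, against 100% for variant genes. In 25 replication-dependent genes the share was under 50%, and in 2, Hist2h2aa2 and Hist2h3c1, it was 0. No variant gene was below 84.3%. Among families the median was lowest in H2A genes, at 35.5%, and was 50.3% in H3, 63.6% in H2B, 81.0% in H4 and 99.6% in H1 genes. Of Hist1h4m windows 11.9% were unique, and Hist1h4n held 88.1% of them.

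H2B genes, for which no variant gene is among the members, summed to 259.5 and 271 TPM, and 16 of 18 were detected. Hist2h2bb (ENSMUSG00000105827.1, chromosome 3, 96269752 to 96270132, plus strand) led at 43.9 and 49.9 TPM. The lincRNA gene Gm42743 overlaps it on the same strand, and 45.4% of Hist2h2bb windows occur there too. Hist3h2ba (chromosome 11, 58948920 to 58949533, plus strand) had 40.5 and 40.2 TPM, with 95.1% of its windows unique. Hist1h2bg was at 36.3 and 33.9 TPM and Hist1h2bc, a gene with a spliced model, at 23.1 and 20.6 TPM. Hist1h2bq and Hist1h2br, at 18.2 and 23.1 TPM and 18.2 and 23.5 TPM, have nearly the same sequence, with 94.8% of Hist1h2bq windows found in Hist1h2br. The posterior SD deposited for their counts was 57.1% and 51.2% of the count in replicate 1, so how their reads divide between them is uncertain.

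H2A, the partner of H2B, has genes of both classes. The 18 replication-dependent genes summed to 225 and 235 TPM, with 16 detected, and the 9 variant genes to 185 and 189 TPM, with 6 detected. The class ratio within H2A was 1.22 and 1.24 on TPM. On expected counts the order turned, with 3319 and 4358 counts in replication-dependent and 5163 and 6594 in variant H2A genes. Hist2h2aa2 (ENSMUSG00000063954.7, chromosome 3, 96239749 to 96240276, minus strand) held the most, at 94.5 and 91.3 TPM, and Hist3h2a (chromosome 11, 58954685 to 58956830, plus strand) came next at 27.9 and 30.02 TPM. The near copy Hist2h2aa1 was at 1.15 and 2.82 TPM. All windows of Hist2h2aa2 also occur in Hist2h2aa1 and in Gm20634, a noncoding gene on the same strand as Hist2h2aa1 with 443 and 516 counts.

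Canonical H3 genes were below the H3.3 genes. Of 12 genes 11 were detected, with a sum of 143 and 151 TPM, and the ratio of replication-dependent to variant H3 was 0.508 and 0.548 on TPM. Hist1h3h (ENSMUSG00000101355.1, chromosome 13, 21717659 to 21718069, plus strand) had 33.3 and 26.4 TPM, and Hist1h3i (ENSMUSG00000101972.1, chromosome 13, 21782960 to 21783370, minus strand) 25.9 and 29.95 TPM. Their deposited intervals overlapped, and only 8.01% of Hist1h3h windows were unique. In the second quantification the same class ratio had a mean of 0.447 ± 0.0459 (SD, n = 2), again with variant H3 higher.

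Linker histones of the H1 family bind the DNA between nucleosomes. The 6 replication-dependent genes summed to 58.1 and 56.0 TPM and the 4 variant genes to 70.9 and 71.3 TPM, a ratio of 0.819 and 0.785. Hist1h1c was at 23.2 and 21.6 TPM and Hist1h1e at 22.1 and 18.6 TPM. Hist1h1a was at 7.12 and 9.96 TPM, Hist1h1b at 3.68 and 3.77 TPM, and Hist1h1d at 1.95 and 1.94 TPM. Hist1h1c and Hist1h1e thus held most of the replication-dependent H1 TPM in both libraries. The Hist1h1d model has 7425 bases, and on expected counts the order turned. Hist1h1d had 345 and 427 counts, Hist1h1a 110 and 192, and Hist1h1b 57 and 73.

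Variant genes are given in full. The H3.3 genes encode the same protein, which is deposited outside S phase by the HIRA and DAXX-ATRX chaperones. H3f3a (ENSMUSG00000060743.12, chromosome 1, 180800832 to 180813943, minus strand) was the highest member in both libraries in the first quantification, at 169 and 162 TPM. H3f3b (ENSMUSG00000016559.14, chromosome 11, 116021912 to 116027962, minus strand) had 112 and 114 TPM. The H3f3a level lay above the H3f3b level in each library, by more than the gap between replicates. Both were higher in the second quantification, H3f3a at 370 and 366 TPM and H3f3b at 168 and 175 TPM. In replicate 2 of the second quantification Hist1h4h, described below, stood above H3f3a. A higher TPM in the second was common. Of 11198 nuclear protein-coding genes compared, 1773 were at least 2-fold higher there and 38 at least 2-fold lower. Summed counts of the H3.3 genes were 6852 and 8602 in the first quantification and 7289 and 9234 in the second.

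Among H2A variants, H2afz and H2afv encode the forms of H2A.Z, which sits at promoters and enhancers. H2afz (ENSMUSG00000037894.13, chromosome 3, 137864487 to 137866922, plus strand) was at 55.7 and 61.5 TPM. H2afv (ENSMUSG00000041126.16, chromosome 11, 6427229 to 6444443, minus strand) was at 19.7 and 17.1 TPM, below H2afz in both libraries. The macroH2A genes, whose proteins carry a large extra domain and are linked to gene silencing, differed in level. H2afy (ENSMUSG00000015937.15, chromosome 13, 56073619 to 56136361, minus strand) was at 52.7 and 46.8 TPM and H2afy2 (ENSMUSG00000020086.6, chromosome 10, 61738665 to 61784147, minus strand) at 5.99 and 6.99 TPM. H2afj (ENSMUSG00000060032.6, chromosome 6, 136808244 to 136810074, plus strand), encoding H2A.J, had 29.7 and 33.3 TPM. H2afx (ENSMUSG00000049932.3, chromosome 9, 44334694 to 44336077, plus strand) had 21.2 and 23.7 TPM.

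The detected H1 variants were close to each other. H1f0 (ENSMUSG00000096210.2, chromosome 15, 79028450 to 79030504, plus strand), encoding the linker histone that accumulates in cells that have stopped dividing, was at 39.5 and 40.9 TPM. H1fx (ENSMUSG00000044927.6, chromosome 6, 87980421 to 87981637, minus strand) was at 31.4 and 30.3 TPM. H1f0 was higher in both libraries. Each is a gene without introns, and all of its windows are unique, so its count hardly depends on how shared reads are divided. An antisense gene overlaps each on the opposite strand.

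**Figure D2:**
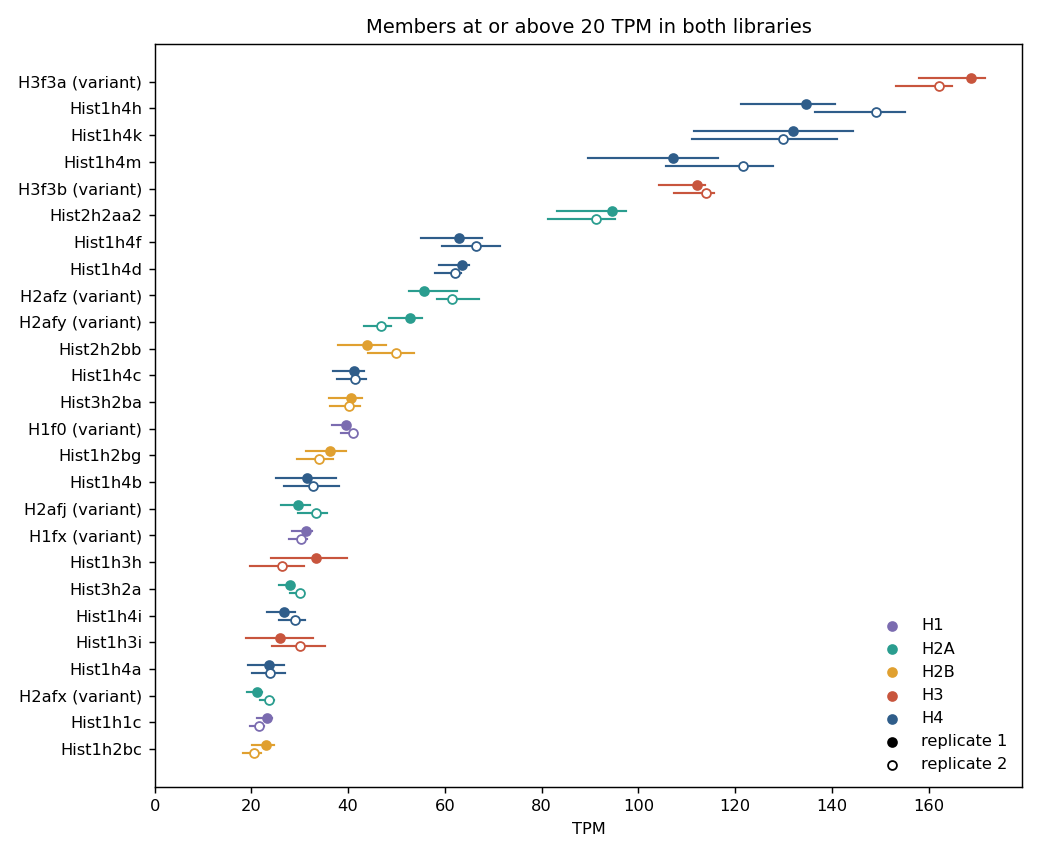
TPM of the 26 members at or above 20 TPM in both libraries, with a filled point for replicate 1, an open point for replicate 2, and lines for the interval of TPM in the authors' deposited gene table. H3f3a, Hist1h4h, Hist1h4k, Hist1h4m and H3f3b stand above 100 TPM in both libraries, and intervals are wider for H4 and H3 replication-dependent genes than for H1f0 and H1fx.

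Members known for germ cells were at or near 0. Under the floor of 3 counts in both libraries were 9 genes. Of the replication-dependent class these were Hist1h1t, Hist1h2aa and Hist1h2ba, whose proteins are the testis forms of H1, H2A and H2B, and Hist2h3c1. Of the variant class they were H1foo, the oocyte linker histone, H1fnt, a spermatid linker histone, and H2afb1, H2afb2 and H2afb3 on chromosome X, genes of a short H2A of the testis. Hist1h1t had 1 and 2 counts and H1foo 1 and 0 counts, and the other 7 were at 0 in both. Hist2h3c1 has no window of its own, so its reads could not be told from those of Gm20634. Counts of 0 allow up to 3 counts in each library, which is 0.0859 and 0.0728 CPM, and this limit covers counting error only. The second quantification gave 19.1 and 10.8 estimated counts to Hist1h2ba, at 10.7 and 5.12 TPM.

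Transcript shares concern variant genes alone, since 5 genes had more than 1 protein-coding transcript above 1 TPM and every one was a variant. H3f3a-201 held 51.2% ± 0.0566 of H3f3a TPM and H3f3a-207 36.6% ± 1.51 (SD, n = 2). In the second quantification H3f3a-207 led with 62.4%. H2afz-201 held 90.8% ± 7.29 and led in both quantifications, at 96.5% in the second. H2afy-201 held 36.0% ± 4.15 and also led in both.

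For the remaining genes the leader changed with the quantification. H2afj-202, the spliced form, held 60.3% ± 3.80, while H2afj-201 held 93.9% in the second. H2afv-202 held 55.3% ± 7.29, and H2afv-201 led in the second at 65.3%. In H3f3b, the processed transcript H3f3b-204, which has no annotated coding sequence, held 54.0% ± 0.0636 of the gene TPM and the coding transcript H3f3b-201 39.3% ± 1.88. The second quantification gave H3f3b-201 0% and the coding transcript H3f3b-202 43.7%. The leading transcript of H3f3a, H3f3b, H2afj and H2afv is thus uncertain.

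Promoter letters are shown because some of them, TATAAA most, also differ between classes, and because they differ within the H3.3 pair. Windows from 250 bases before to 50 after the gene start were taken from RefSeq (GRCm38.p6) and matched 62 of 67 replication-dependent and 14 of 15 variant genes. CCAAT was searched on both strands and stood in 85.5% of replication-dependent and 71.4% of variant genes (53 of 62 and 10 of 14). Over all 27025 genes with a window the share was 41.1%. TATAAA stood in 56.5%, 7.14% and 15.7% of these groups, in that order. ATTTGCAT, the octamer linked to H2B promoters, stood in 22.6%, 7.14% and 1.97%. With 14 variant genes matched, 7.14% is 1 gene. The 120 bases before the RefSeq start are given on the strand of the gene, with capitals at these letters or their reverse complements. For H3f3a and H3f3b the RefSeq start differs from the GENCODE start, and these bases lie inside the gene spans given above.
Hist1h2bg (chr13:23571280-23571399, plus strand): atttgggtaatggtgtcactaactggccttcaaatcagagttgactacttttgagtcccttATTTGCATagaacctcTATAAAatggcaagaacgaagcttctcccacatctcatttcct
H3f3b (chr11:116024505-116024624, minus strand): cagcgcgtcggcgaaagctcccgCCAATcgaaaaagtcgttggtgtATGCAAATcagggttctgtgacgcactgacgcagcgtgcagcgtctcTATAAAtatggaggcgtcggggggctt
H3f3a (chr1:180813606-180813725, minus strand): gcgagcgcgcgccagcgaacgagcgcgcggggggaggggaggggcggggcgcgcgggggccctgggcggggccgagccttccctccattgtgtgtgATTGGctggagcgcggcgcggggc

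H3f3b was the only variant gene whose window held TATAAA or ATTTGCAT, and it held both, with CCAAT. H3f3a held CCAAT only. None of the 3 motifs contains another, and a match marks letters and not a bound site.

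Replicates were compared next. Of the 82 members, 55 had at least 200 expected counts over both libraries, 45 replication-dependent and 10 variant. None of them differed at least 2-fold, beside 0.825% of all 12962 genes tested the same way (0.1% higher and 0.725% lower in replicate 2), so the count of 0 is near this background. The TPM ratio of replicate 2 to replicate 1 was above 1 in 31 and below 1 in 24 members, while 34.7% of all genes tested were above 1. The median ratio on log2(TPM + 1), a scale that understates changes of low genes, was 0.02 for replication-dependent and 0.04 for variant genes, and -0.07 over all genes tested. Scaled by spike-ins, the medians were -0.07, -0.06 and -0.15, so the sign of these small medians depends on the scaling.

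The ratios of members ranged from 0.516 to 1.54. Hist1h4n had 16.5 and 8.54 TPM, a ratio of 0.516 with an exact Clopper-Pearson 95% counting interval of 0.388 to 0.683. Its twin Hist1h4m had a ratio of 1.13, and the pair summed to 124 and 130.1 TPM, a ratio of 1.05. Hist1h2ao, with 8.20 and 12.6 TPM, had a ratio of 1.54 (interval 1.16 to 2.06), and Hist1h2ap, with which it shares 92.7% of windows, had 0.728. That pair summed to 25.9 and 25.5 TPM, a ratio of 0.985. These sums were chosen after the values were seen, for the 6 pairs of members in which a gene shares at least 80% of its windows with the other. Among the remaining pairs, Hist2h2aa1 with Hist2h2aa2 gave a ratio of 0.984, Hist1h2bq with Hist1h2br 1.28, Hist1h2ad with Hist1h2ah 1.56 and Hist1h2ad with Hist1h2ai 1.15. Sums were thus near 1 in some of these pairs and not in others.

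**Figure D3:**
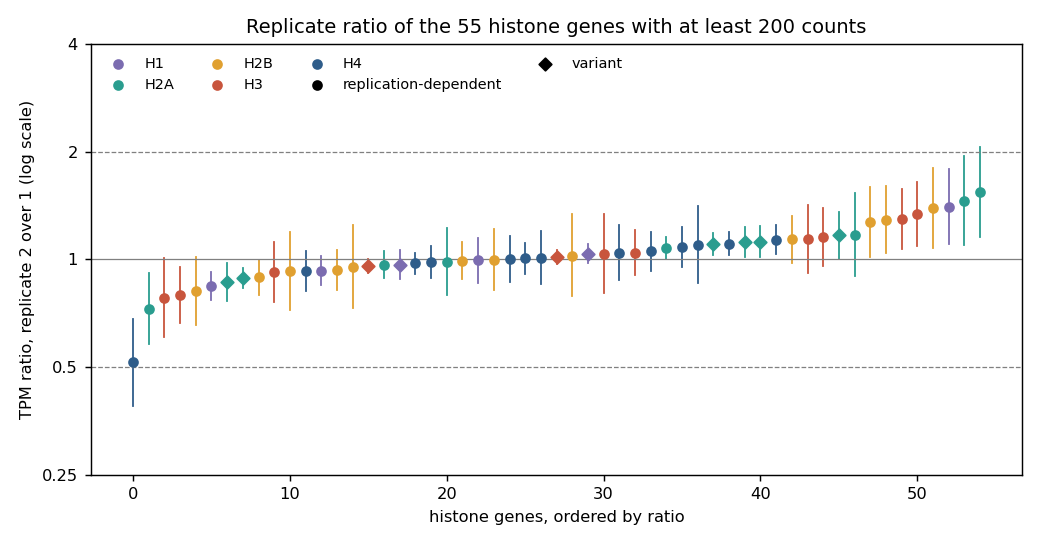
TPM ratio of replicate 2 to replicate 1, on a log scale, for the 55 members with at least 200 expected counts, ordered by ratio, with exact 95% counting intervals. Dashed lines mark 2-fold, and each of the 55 points lies between them, with Hist1h4n at 0.516 the lowest and Hist1h2ao at 1.54 the highest.

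Differences between deposited quantifications were more frequent than those between replicates. The authors deposited a second transcript table for each library, in the kallisto format, which was summed per gene. Of 68 members at 5 TPM or more in either quantification, 36 differed at least 2-fold in mean TPM, 13 lower and 23 higher in the second, beside 16.2% of all nuclear protein-coding genes compared. Over those genes, 38 were lower and 1773 higher in the second of 11198 compared, so a lower TPM in the second was rarer in general. On counts, which are not divided by length, 29 of 58 members compared differed at least 2-fold, 25 lower and 4 higher in the second, beside 2.1% of all genes. Of 12382 genes compared on counts, 69 were lower and 191 higher. Each of the 29 was replication-dependent, while 0 of 10 variant genes differed 2-fold on counts and 2 did on TPM, H3f3a and H2afv.

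H4 genes lost most counts. In the first quantification the 13 genes had 7328 and 9369 expected counts, and in the second 1832 and 2442 estimated counts, with 11 of 13 at least 2-fold lower. Hist1h4d had 1591 and 1936 counts in the first and 17 and 16 in the second, although all of its windows are unique. Hist1h4k had 676 and 831 counts against 3 and 2, and Hist1h4f 442 and 583 against 2 and 2.01. Hist1h4h, the leading H4 gene by TPM, kept 819 and 1392 counts of 1203 and 1663. In the second quantification it was again the highest H4 gene, at 307 and 433 TPM.

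Among H2A genes, the near copies Hist2h2aa1 and Hist2h2aa2 exchanged rank. Hist2h2aa2 went from 975 and 1177 counts to 0 in both libraries, and Hist2h2aa1 from 13.5 and 41.3 counts to 842 and 1037, or 191 and 193 TPM. Together the pair had 989 and 1218 counts in the first and 842 and 1037 in the second. Hist1h2ao went from 75.2 and 144 counts to 0, and its near copy Hist1h2ap was lower too, so that this pair went from 238 and 293 to 73.1 and 103 counts. Hist1h2ad was at 12.8 and 41.0 counts in the first and 233 and 287 in the second. Hist1h2bq, of the H2B family, went from 18.2 and 23.1 TPM to 0.473 and 0.472 TPM. By TPM, the 6 members that differed most were Hist2h2aa2, Hist1h2ao, Hist1h2ba, Hist2h2aa1, Hist1h4k and Hist1h4f. For near copies such as Hist2h2aa1 and Hist2h2aa2, which gene the reads come from is uncertain.

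Second counts were lowest, relative to first counts, in short genes. Among members shorter than 500 bases the second count was a median of 16.9% of the first (19 genes), from 500 to under 1000 bases 54.4% (17 genes), and from 1000 bases 94.4% (22 genes). Over all nuclear protein-coding genes of these lengths the medians were 69.0%, 94.4% and 107%. The part that length or shared sequence plays in the difference was not tested.

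**Figure D4:**
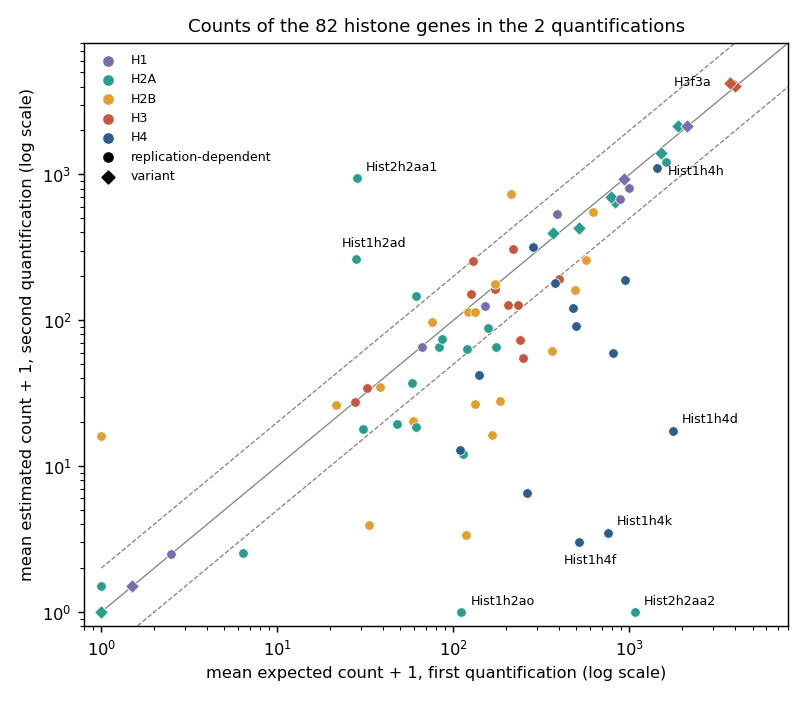
Mean count + 1 of each of the 82 members in the first (horizontal) and second (vertical) quantification, both on log axes, coloured by family, with diamonds for variant genes, a solid line at equality and dashed lines at 2-fold. Detected variant genes lie between the dashed lines, while many H4, H2A and H2B genes lie below them and Hist2h2aa1 and Hist1h2ad above.

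**Figure D5:**
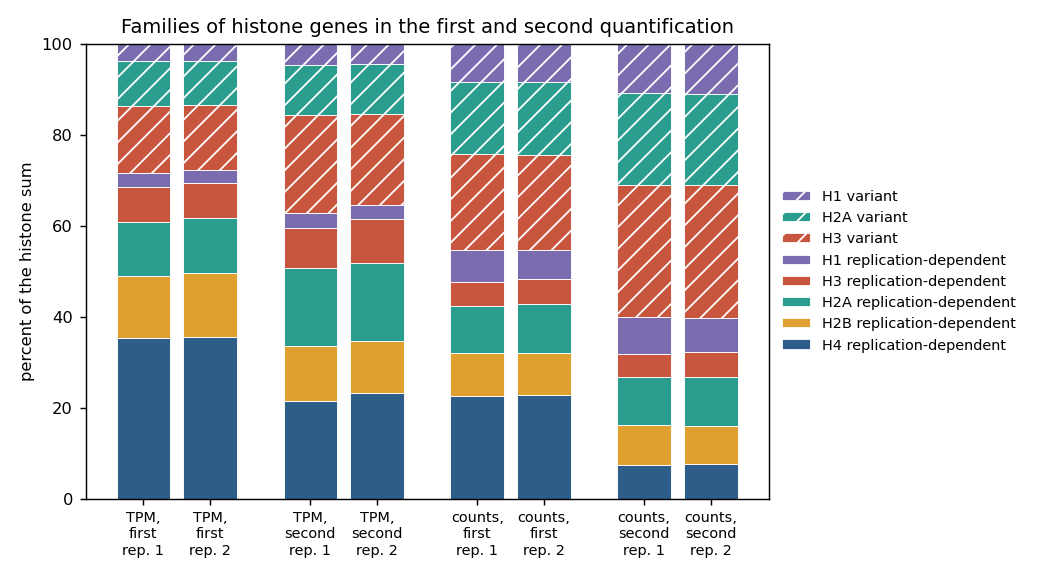
Percent of the histone sum held by each family, stacked to 100, for both libraries, by TPM and by counts in the first and second quantification, with hatching for variant genes. H4 genes hold 35.2% and 35.5% of the sum by TPM in the first quantification and 21.5% and 23.3% in the second.

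By TPM in the second quantification, H3 genes of both classes together held 30.4% and 29.6% of the histone sum and H4 genes 21.5% and 23.3%. In the first they held 22.5% and 22.03%, below H4. On counts H3 was above H4 in both quantifications, and in the second H4 held 7.31% and 7.71% of counts against 34.2% and 34.6% for H3. The order of these families thus differed with both the unit and the deposited table.

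Genes that act on histone RNA and proteins were read for context. Of 23 listed symbols for genes of histone mRNA processing 21 were found and 19 detected, with none at least 2-fold different between libraries. Ars2 and Symplk were not found. Ars2 is another name of the listed Srrt, and Symplk is a misspelling of Sympk, which was therefore not read. Slbp, encoding the stem-loop binding protein, was at 9.03 and 9.15 TPM, Lsm11, of the U7 particle that cuts histone mRNA, at 15.1 and 14.4 TPM, and Npat, the coactivator of histone gene transcription, at 6.58 and 6.34 TPM. The highest were Srrt at 92.4 and 66.6 TPM, an RNA processing factor that binds the cap-binding complex, and Snrpb at 44.7 and 49.97 TPM, a core protein of spliceosomal particles that also sits in the U7 particle. Zfp473, a zinc-finger protein of the same processing step, was at 0.2 and 0.15 TPM. Rnu7, the U7 RNA itself, was at 0 in both libraries, and whether these libraries could capture this small RNA was not examined.

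Histone chaperones were at higher levels. All 25 listed genes were found and 23 detected. Set, Atrx and Nap1l1 led, at 82.8 and 75.9, 72.4 and 59.8, and 60.8 and 59.3 TPM. Atrx and Daxx, the latter at 11.1 and 11.4 TPM, load H3.3 at repeats, and Hira, at 30.7 and 30.6 TPM, loads it at active genes. Of the CAF-1 complex, which assembles nucleosomes on newly replicated DNA, Chaf1a was at 1.08 and 1.99 TPM and Chaf1b at 0.35 and 0.75 TPM, while Rbbp4, a subunit it shares with other complexes, was at 47.2 and 54.1 TPM. Nasp, a chaperone of H1 and of H3 with H4, was at 13.7 and 10.9 TPM. Of the Asf1 paralogs, Asf1a was at 8.97 and 9.23 TPM and Asf1b at 0.46 and 0.16 TPM.

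Genes of DNA replication and the cell cycle summed to 71.7 TPM over 24 genes in each library, and 15 were detected. Pcna, the sliding clamp of DNA polymerase, was highest at 18.9 and 20.6 TPM, Mcm7 followed at 8.65 and 7.44 TPM and Mcm6 at 6.91 and 6.73 TPM. Top2a was at 1.65 and 1.83 TPM, Mki67, a marker of cycling cells, at 0.83 and 0.73 TPM, and Cdk1 at 0.61 and 0.46 TPM. The sum of replication-dependent histone genes stood at 1350 and 1403 TPM beside these values. Whether these levels are related was not tested, since both libraries belong to 1 group.

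Among 8 listed genes that the symbol rule leaves out, all but the linker protein gene Hils1 encoding a histone fold, 7 were detected. Drap1, of a transcription repressor complex, was at 124 and 126 TPM, and the others detected were far lower. Cenpa, the H3 variant of centromeres, was at 2.01 and 1.59 TPM, and Hils1, a spermatid linker protein, at 0.05 and 0 TPM.

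Overlaps limit a few values. A gene other than a microRNA lies on the same strand over 7 members and on the opposite strand over 12. Hist1h2be and Hist1h1e overlap each other on the same strand, with 185 and 235 counts against 972 and 1024 in the first quantification and 669 and 801 against 786 and 837 in the second. Trim17 overlaps Hist3h2a on the same strand and holds 29.8% of its windows.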

How the data were processed

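RNA levels were read from tables deposited for both libraries. Per the file headers, gene and transcript tables held expected counts and TPM, and transcript tables also the percent of the gene that each transcript holds. A posterior SD and an interval of TPM are the authors' values too. These columns have the RSEM format. The level of the interval is not given in the sources used here, nor are the aligner and its version. A second deposited transcript table, in the kallisto format, held TPM and estimated counts, per the file headers. The build was mm10, per the labels, and the annotation GENCODE M21, per the deposited notes, to which all 55536 gene identifiers were matched.

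TPM was used as deposited. Replicate ratios needed 200 expected counts or more in the libraries together, with a floor of 3 counts, and a pseudocount of 1 TPM for medians. Depth was 34919989 and 41206890 expected counts, which limits precision at low counts, and intervals cover counting error only. TMM factors came from edgeR 4.0.16 and size factors from DESeq2 1.42.0, after rounding expected counts to whole numbers, in R 4.3.3, and other work used Python 3.11.15. The ratio rule was tested on simulated data. Named were every variant gene, the 15 replication-dependent genes of highest level, members 2-fold different between libraries, the 6 that differed most between quantifications, members under the floor and up to 6 genes per list. Other members were named after their values were seen. Members and lists were chosen with earlier results of these data known. Protein identity was planned, and identity of coding sequences was used in its place. Alternatives were the second quantification, other lengths, denominators, scalings, filters and thresholds, and each replicate alone.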

Additional observations from a re-analysis of the deposited data

How the results depend on the processing

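No paired analysis was possible because the labels give a single group. The detected numbers, 61 replication-dependent and 10 variant genes, were the same in each replicate alone, and ran from 45 to 62 and stayed at 10 under the other limits and the second quantification. With each replicate alone the replication-dependent sum was 1350.22 to 1403.22 TPM, the variant sum 536.60 to 536.87 TPM, the replication-dependent share 71.6% to 72.3% and the H4 share 35.2% to 35.5%. The second quantification gave a replication-dependent sum of 1658 TPM, a variant sum of 944 TPM, a replication-dependent share of 63.7% and an H4 share of 22.4%. On expected counts the shares were 54.8% and 22.6%. With annotated in place of effective lengths the shares were 69.1% and 33.2% and the variant sum 600.04 TPM. Rescaling to nuclear protein-coding genes, which enlarges every TPM by construction, gave sums of 3227 and 1258 TPM.

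The number of histone genes past 2-fold between libraries, 0 as reported and under TMM and DESeq2 scaling, was 1 under spike-in scaling (Hist1h4n) and 1 in the second quantification (Hist1h4a). It was 2 with at least 20 counts and 2 with no filter (Hist1h2ad and Hist2h2aa1 in each), and 2 at 1.5-fold (Hist1h2ao and Hist1h4n). Each of these genes was replication-dependent, so the numbers for that class alone are the same, and variant genes stayed at 0. Over all genes the share past the fold was 0.918% under spike-in scaling, 6.37% with at least 20 counts, 10.4% with no filter, 3.88% at 1.5-fold and 1.42% in the second quantification. Under TMM scaling the median log2 ratios were 0.10 for replication-dependent genes, 0.14 for variant genes and 0.02 for all genes. The cause of these shifts was not tested. Of the levels and shares of single genes and families, the second quantification moved 33 by more than 1 SD between replicates and left 6 within it. Annotated length moved 22 and left 12, counts in place of TPM moved 4, and each replicate alone left all 39 within it, as by construction with 2 libraries. Genes at 0 in both quantifications (H1fnt, H2afb1, H2afb2 and H2afb3) could not move and are among those left within 1 SD. With 2 libraries an SD rests on a single pair of values.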
